A study of Mus musculus with 20 samples.

Results

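The interaction of cholesterol crystals and cyclodextrin was measured on all 20 arrays of the series, in a layout of 2 by 2 treatments with 5 arrays in each of 4 groups. The cells were bone marrow-derived macrophages of C57BL/6 mice, cultured for 6 days with M-CSF at 40 ng/ml, which turns marrow precursors into macrophages. The groups were cells given crystals for 3 h and then cyclodextrin for 6 h (CD-cc), cells given crystals (cc), cells given cyclodextrin for 6 h (CD) and untreated cells (con). The crystal dose was 200 ug, stated relative to cell number, and the cyclodextrin was 10 mM hydroxypropyl-beta-cyclodextrin, a ring of sugars that holds cholesterol in its core. For each gene the interaction is the cyclodextrin effect in crystal-loaded cells, CD-cc minus cc, less the cyclodextrin effect in cells without crystals, CD minus con, in log2 units. A value of 0 means that the 2 treatments acted additively on the log2 scale. A negative value means that cyclodextrin raised the gene less, or lowered it more, in loaded cells than in unloaded cells.

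Macrophages control their cholesterol through a pair of opposed sensors. When sterol in the endoplasmic reticulum is low, the transcription factor SREBP-2 is released to the nucleus and switches on the genes that make and take up cholesterol, while INSIG proteins hold it back when sterol is plentiful. When oxysterols accumulate, the nuclear receptors LXR alpha and LXR beta switch on transporters such as ABCG1 and ABCA1 that pass cholesterol out of the cell. Cyclodextrin can draw cholesterol from membranes, and crystals taken up by a macrophage are a store of it. The layout asks whether cyclodextrin acts alike on cells with and without that store.

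By their labels the CD-cc, cc and CD cells came from mice of 2 to 5 months and the con cells from mice of 10 to 15 months. Age and treatment cannot be told apart wherever con cells enter, the interaction included. For cc and con cells, the time in culture that corresponds to the cyclodextrin step is not stated in the sources used here. The study concerns LXR and its design text names mice that lack it, but the labels give no genotype. In the authors' values the arrays form 5 sets of 4, each with 1 array of every group, and these sets served as a block. Sets 1 to 3 lay on chips 1 and 5, with Xist at 11.0 to 11.5 (log2), and sets 4 and 5 on chips 2, 3, 4 and 6, with Xist at 4.26 to 4.45, so the chips and the Xist pattern coincide. Nothing in the labels says that replicates were separate animals or cultures, so p-values measure the spread between arrays, which may be technical. Median bead signal per array was 86.6 to 128, and 15342 to 17892 of 45281 probes were detected. Of 16 macrophage markers tested, 15 were detected on all 20 arrays, with means of 6.01 to 14.6. No tested marker of macrophages, neutrophils, dendritic cells, osteoclasts, B cells, fibroblasts or mast cells was called for the interaction (0.140% of all genes tested). No T cell, NK cell or erythroid marker passed the detection filter.

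Of 10018 genes tested, 14 departed from additivity (0.140% of genes tested). In 12 the interaction was negative (0.120%) and in 2 it was positive (0.0200%). A call means a limma p-value below 0.05 after Benjamini-Hochberg adjustment across the 10018 genes, in the fit with the set as a block unless another fit is named. Without any block 4 genes were called (0.0399%), namely Mvd, Insig1 and Aacs with a negative interaction and Abcg1 with a positive one. The layout is balanced, so the block leaves each estimate as it is and changes its error alone. The median standard error (SE) was 0.184 with the set block and 0.228 without it. All 14 genes kept the same sign in 5 of 5 sets, which a call favours, since the estimate is the mean of the 5 set values. In all 519 genes had an unadjusted p below 0.05 with the set block and 230 without a block. Chance alone would give a share of about 0.05 of the 10018 genes. The interaction over all genes had a median near 0, with 50.1% of genes negative, and its 5th and 95th percentiles were -0.37 and 0.34.

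The 12 genes with a negative interaction were Mvd, Insig1, Lss, Stard4, Fdps, Aacs, Cyp51, Hsd17b7, Sqle, Dhcr7, Acsl3 and Tmem97. The first 10 make cholesterol or its precursors, move sterol or hold back SREBP-2, Acsl3 activates fatty acids, and Tmem97 is a sterol-binding membrane protein. In loaded cells cyclodextrin raised 0 of the 12 (1.29% of genes tested were called higher there) and lowered 2, Insig1 and Acsl3 (0.509% called lower). In unloaded cells it raised 11 of the 12, all except Acsl3 (2.57% called higher). The 12 were chosen by the difference of these 2 effects on the same arrays. The counts thus describe the form of the departure and are no separate support for it. Since these are whole-culture RNA values, fewer cells making a transcript and less transcript per cell cannot be told apart.

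RefSeq promoter entries (GRCm38.p6) were found for 9 of these 12 genes, and the 250 bases before the start of the first 3 by size of interaction are shown because they carry the box counted below. In them, capitals mark CCAAT or its complement ATTGG, the box bound by the factor NF-Y, a known partner of SREBP-2. The Mvd stretch lies at chr8:122443423-122443672 on the minus strand, the Insig1 stretch at chr5:28071162-28071411 on the plus strand and the Lss stretch at chr10:76531355-76531604 on the plus strand. Each is written 5′ to 3′ along its gene.
Mvd: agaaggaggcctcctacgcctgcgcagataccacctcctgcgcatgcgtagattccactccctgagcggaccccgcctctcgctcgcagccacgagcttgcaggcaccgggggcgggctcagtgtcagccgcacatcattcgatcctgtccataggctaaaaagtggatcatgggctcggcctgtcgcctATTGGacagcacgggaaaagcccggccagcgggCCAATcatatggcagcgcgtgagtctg
Insig1: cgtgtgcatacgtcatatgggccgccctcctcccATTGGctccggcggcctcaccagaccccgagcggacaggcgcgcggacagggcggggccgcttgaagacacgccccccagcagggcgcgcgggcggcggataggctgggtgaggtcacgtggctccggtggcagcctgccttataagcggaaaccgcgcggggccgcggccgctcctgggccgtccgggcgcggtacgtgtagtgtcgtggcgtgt
Lss: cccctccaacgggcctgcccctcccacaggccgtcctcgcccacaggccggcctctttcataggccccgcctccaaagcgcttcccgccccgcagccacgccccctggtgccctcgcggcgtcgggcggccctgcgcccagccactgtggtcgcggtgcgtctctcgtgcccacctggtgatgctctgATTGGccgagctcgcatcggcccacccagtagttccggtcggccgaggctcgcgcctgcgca
The box begins 60 and 27 bases before the start of Mvd, 216 bases before that of Insig1 and 62 bases before that of Lss. It was present on either strand in 8 of the 9 promoters, against 40.4% of the 8160 promoters of tested genes. This motif was chosen after seeing the data, and a match is a run of letters, not a binding site. One sterol response element core, TCACNCCAC, was in 0 of the 9 and in 1.15% of all. TGACNNNGC, a short form of the NRF2 site, was in 2 of the 9 (Aacs and Dhcr7) and in 13.6% of all. The letters TGATGNAA of ATF4 and CHOP were in 0 of the 9 and in 2.60% of all. The palindromic NF-kB site (0.392% of all), a triple heat shock element (0.417%) and the LXR direct repeat with 4 spacer bases (0%) were likewise in 0 of the 9. All motifs were searched on both strands. Of the genes with a positive interaction, Ap5s1 had a promoter entry, without a CCAAT box.

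Among enzymes of the early steps, Mvd encodes the decarboxylase that makes isopentenyl diphosphate from mevalonate diphosphate. In sets 1 to 5 its level was 6.20, 6.59, 6.20, 6.88 and 6.42 in CD-cc cells, against 7.08, 7.06, 6.59, 6.87 and 6.74 in cc cells (log2 normalised signal here and below). It was 8.37, 9.06, 8.29, 9.57 and 9.11 in CD cells, against 7.07, 6.90, 6.96, 7.26 and 7.22 in con cells. All 5 CD arrays lay above all con arrays, while the CD-cc and cc ranges overlapped with the means in the other order. The cyclodextrin effect was thus -0.41 in loaded cells (adjusted p = 0.208) and 1.80 in unloaded cells (adjusted p = 4.04e-06). The interaction was -2.21 ± 0.222 (SE, n = 5 per group, 95% interval -2.68 to -1.74, limma adjusted p = 1.04e-04, and 9.74e-04 without a block). As a ratio of the 2 cyclodextrin effects this is a 4.63-fold difference.

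Aacs makes acetoacetyl-CoA, a feed of sterol synthesis, outside the mitochondria. It read 8.85, 8.77, 8.80, 8.51 and 8.86 in CD-cc cells, against 8.64, 8.85, 8.49, 8.97 and 8.83 in cc cells. It read 10.47, 10.91, 10.52, 10.87 and 10.78 in CD cells, against 9.34, 9.13, 9.34, 9.19 and 9.41 in con cells. The loaded groups had the same mean, 8.76, and the unloaded groups were apart on every array. The interaction was -1.43 ± 0.162 (limma adjusted p = 2.27e-04, and 3.23e-04 without a block). Fdps, the synthase of farnesyl diphosphate, averaged 8.91 in CD-cc cells and 8.89 in cc cells, and 11.99 in CD cells and 10.51 in con cells. Its interaction was -1.46 ± 0.209 (limma adjusted p = 0.00323), and a further probe of the gene gave -1.39. Without a block the adjusted p for Fdps was 0.106.

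**Figure D1:**
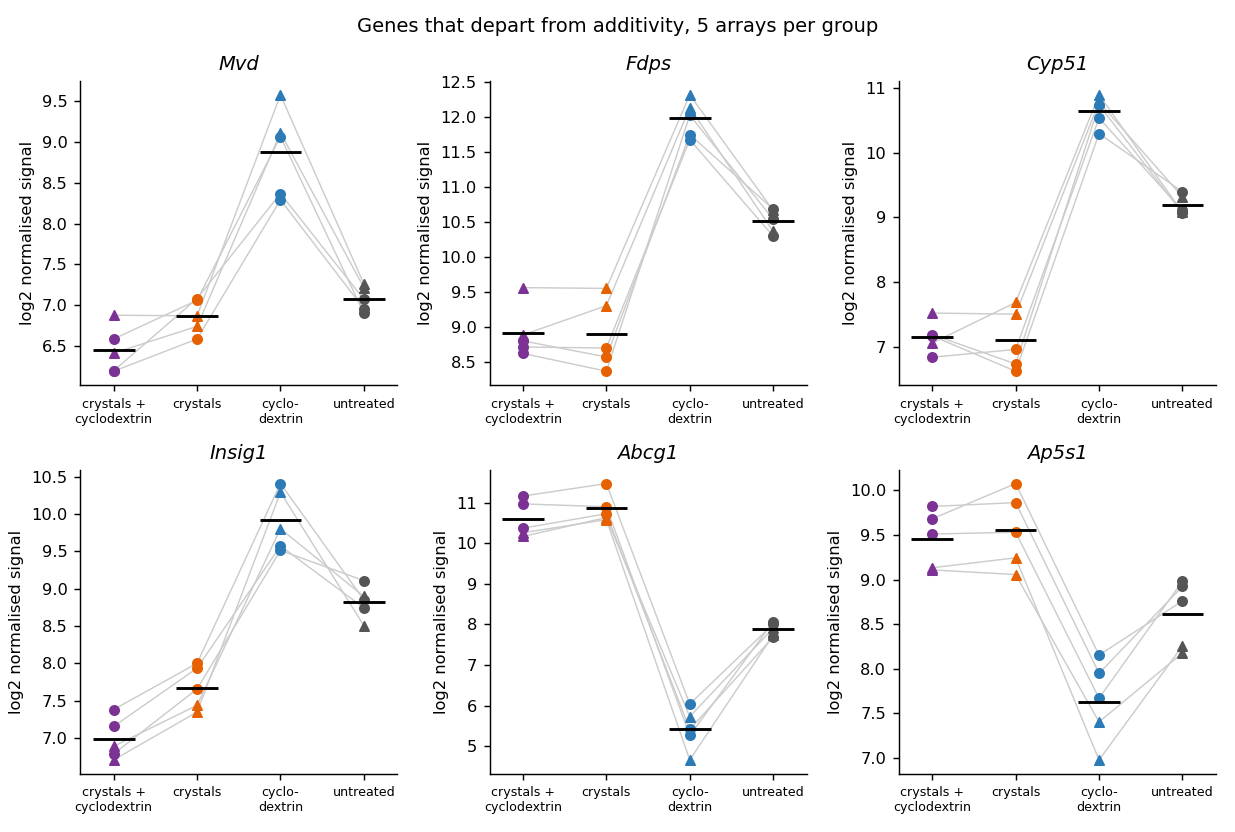
Log2 normalised signal of 6 genes (vertical axes, each with its own range) in CD-cc, cc, CD and con cells, labelled crystals + cyclodextrin, crystals, cyclodextrin and untreated. Points are arrays, circles for sets 1 to 3 and triangles for sets 4 and 5, grey lines join the arrays of a set, and bars are group means. For Mvd, Fdps, Cyp51 and Insig1 the CD arrays stand above the con arrays while CD-cc and cc arrays overlap, and for Abcg1 and Ap5s1 the CD arrays stand lowest.

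For each called enzyme that closes or trims the sterol ring the mean was highest in CD cells and next in con cells, with CD-cc and cc cells below. Ebp, which was not called, averaged 9.21 in CD cells and 9.34 in con cells. Sqle, the epoxidase of squalene, had an interaction of -1.18 ± 0.194 (limma adjusted p = 0.0112), with 9.20 in CD-cc cells and 9.09 in cc cells, and 11.77 in CD cells and 10.48 in con cells. Lss, which folds oxidosqualene into lanosterol, read 6.72, 6.83, 6.45, 6.84 and 7.12 in CD-cc cells, against 6.79, 6.66, 6.65, 7.27 and 7.17 in cc cells. It read 8.60, 8.70, 8.61, 9.36 and 9.58 in CD cells, against 7.69, 7.27, 6.94, 7.70 and 7.90 in con cells. The CD and con ranges were apart, and the CD-cc and cc ranges overlapped. The interaction of Lss was -1.58 ± 0.169 (limma adjusted p = 1.30e-04, and 0.0668 without a block), while a dim further probe gave -0.13.

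Cyp51, the demethylase of lanosterol, read 6.84, 7.19, 7.17, 7.05 and 7.52 in CD-cc cells, against 6.96, 6.73, 6.62, 7.68 and 7.50 in cc cells. It read 10.54, 10.74, 10.30, 10.90 and 10.79 in CD cells, against 9.11, 9.07, 9.40, 9.08 and 9.32 in con cells. The effect of cyclodextrin on Cyp51 was 0.05 in loaded cells (95% interval -0.28 to 0.39) and 1.46 in unloaded cells. The interaction was -1.40 ± 0.222 (limma adjusted p = 0.00855, and 0.0572 without a block). Hsd17b7, a reductase of the same stretch, had an interaction of -1.37 ± 0.178 (limma adjusted p = 0.00120). Dhcr7, which makes the last reduction to cholesterol, had one of -0.93 ± 0.143 (limma adjusted p = 0.00630). Without a block the adjusted p was 0.106 for Hsd17b7 and 0.887 for Dhcr7.

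Insig1, the anchor that retains SREBP in the endoplasmic reticulum and is itself an SREBP target, was the gene for which the cyclodextrin effect had opposite signs past the threshold. It read 7.38, 6.79, 7.16, 6.89 and 6.71 in CD-cc cells, against 8.0, 7.66, 7.94, 7.44 and 7.35 in cc cells, lower in each set. It read 10.41, 9.51, 9.57, 9.80 and 10.29 in CD cells, against 8.85, 9.11, 8.74, 8.90 and 8.51 in con cells, higher in each set. The effect of cyclodextrin was -0.69 in loaded cells (limma adjusted p = 0.0469) and 1.10 in unloaded cells (0.00140), and the fall in loaded cells had an adjusted p of 0.204 without a block. The interaction was -1.79 ± 0.236 (limma adjusted p = 0.00131, and 0.00513 without a block).

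Stard4, a carrier of sterol between membranes, averaged 6.38 in CD-cc cells and 6.72 in cc cells, and 10.03 in CD cells and 8.84 in con cells. Its interaction was -1.53 ± 0.249 (limma adjusted p = 0.0110, and 0.148 without a block). Acsl3, a long-chain acyl-CoA synthetase, averaged 8.05 in CD-cc cells and 8.56 in cc cells, and 9.22 in CD cells and 8.80 in con cells. Its interaction of -0.92 ± 0.171 (limma adjusted p = 0.0365) joined an effect of -0.51 in loaded cells (adjusted p = 0.0415) to a difference of 0.41 in unloaded cells that missed the threshold (adjusted p = 0.0684). Tmem97 had an interaction of -0.70 ± 0.134 (limma adjusted p = 0.0473), and it was not called when all detected probes were tested separately (adjusted p = 0.0728). Without a block neither Acsl3 (adjusted p = 0.850) nor Tmem97 (0.177) was called.

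**Figure D2:**
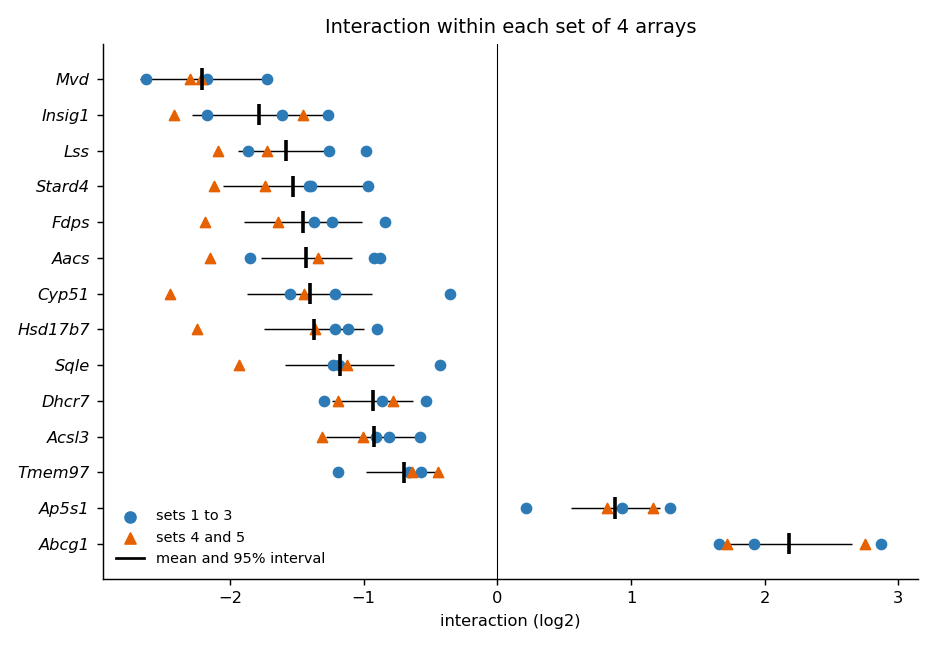
Interaction in log2 units (horizontal axis) of the 14 genes called, within each set of 4 arrays. Circles are sets 1 to 3, triangles are sets 4 and 5, and the bar and line are the mean and its 95% interval from limma. Every set of the first 12 genes lies below 0, from -2.63 (Mvd, set 2) to -0.35 (Cyp51, set 3), and every set of Ap5s1 and Abcg1 above 0.

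Crystals alone lowered most of these genes. In cc against con cells 9 of the 12 fell (15.2% of genes tested were called lower there), and Mvd, Acsl3 and Tmem97 did not pass the test. The difference was -2.12 for Stard4 and -2.10 for Cyp51, and -0.21 for Mvd (adjusted p = 0.348). In CD-cc against CD cells, a pair of groups with the same age label, all 12 fell (10.1% of genes tested were called lower). The difference there was -3.65 for Stard4, -3.50 for Cyp51, -3.07 for Fdps and -2.42 for Mvd. The interaction is also CD-cc minus CD less cc minus con. Genes with a negative interaction are thus chosen toward this fall, so the count of 12 is no separate support.

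The wider list of SREBP-2 targets, which holds 9 of the called genes, showed a graded pattern. Of a list of 25 genes of cholesterol synthesis and uptake, 18 were tested. Of these, 0 had a positive (0.0200% of all genes tested), 9 a negative (0.120%) and 9 no called interaction. The list median was -1.07, against a median near 0 for all genes, and 16 of 18 estimates were negative. These values and the list counts and medians below cover all 18 members, the 9 called ones included. They are thus no separate support for the calls. The median was -0.74, -1.17, -0.53, -1.67 and -1.27 in sets 1 to 5. In loaded cells cyclodextrin raised 0 of the 18 (1.29% of all genes tested) and lowered 1 (0.509%), with a median of -0.04, and in unloaded cells it raised 14 (2.57%), with a median of 0.98. The 9 members without a call included Idi1, the isomerase of isopentenyl diphosphate, at -1.20, Msmo1, a sterol methyl oxidase, at -0.97, and Nsdhl, a sterol dehydrogenase, at -0.88 (adjusted p = 0.107). Srebf2, which encodes SREBP-2 itself, had an estimate of -0.65, Pmvk one of -0.62, Mvk one of -0.51 and Sc5d one of -0.50. Ebp at 0.04 and Tm7sf2 at 0.05, an isomerase and a reductase of the later steps, were the 2 members with positive estimates. Some of these probes were near background in loaded cells. Idi1 was detected on 2 of 5 CD-cc and 2 of 5 cc arrays, Mvk on 0 and 2, Sc5d on 1 and 2 and Tm7sf2 on 3 and 2, so the effect of cyclodextrin in loaded cells cannot be read from them.

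Fatty acid genes of SREBP-1 leaned the same way with less separation. Of 11 tested, 1 was called, Acsl3, with a negative interaction (0.120% of all genes tested). In all 10 estimates were negative and the median was -0.40. Elovl6, an elongase, had an interaction of -1.07 ± 0.277 (limma adjusted p = 0.390), and cyclodextrin raised it in unloaded cells by 1.23 (adjusted p = 0.00185). It was detected on 4 of 5 CD-cc and 3 of 5 cc arrays, and its interaction was called in the authors' values (-0.61, adjusted p = 0.0387). Scd1, the desaturase that also answers to LXR, had one of -0.88 ± 0.186 (limma adjusted p = 0.120). Srebf1, the gene of SREBP-1, had an estimate of -0.14 (95% interval -0.65 to 0.36).

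Positive interactions were led by Abcg1, the transporter that hands cholesterol to lipoprotein particles. It read 10.37, 11.16, 10.97, 10.26 and 10.17 in CD-cc cells, against 10.73, 11.47, 10.90, 10.58 and 10.63 in cc cells. It read 5.41, 6.04, 5.26, 4.66 and 5.73 in CD cells, against 7.69, 8.01, 8.07, 7.74 and 7.91 in con cells. The unloaded groups were apart on every array and the loaded groups overlapped. The effect of cyclodextrin on Abcg1 was -0.28 in loaded cells (95% interval -0.61 to 0.06, limma adjusted p = 0.442) and -2.46 in unloaded cells (adjusted p = 1.64e-07), where 1.56% of genes tested were called lower. The interaction was 2.18 ± 0.223 (95% interval 1.71 to 2.66, limma adjusted p = 1.04e-04, and 0.00554 without a block). The probe was detected on 4 of 5 CD arrays, so its lowest values lie near background, and in the authors' table, which has no background correction, the estimate was 1.03. On the linear scale the sign turned: mean signals of 1583 in CD-cc cells and 1896 in cc cells, and of 29.0 in CD cells and 221 in con cells, gave an interaction of -121 signal units. Of the 14 genes called, Abcg1 was the only one whose sign depended on the scale, and over all genes 637 of 10018 did.

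Ap5s1 encodes the sigma subunit of AP-5, an adaptor complex of the late endosome. It read 9.82, 9.51, 9.68, 9.11 and 9.13 in CD-cc cells, against 9.86, 9.53, 10.08, 9.06 and 9.24 in cc cells. It read 7.95, 7.67, 8.15, 7.41 and 6.98 in CD cells, against 8.92, 8.98, 8.76, 8.18 and 8.26 in con cells. The CD arrays lay below all con arrays, and the CD-cc and cc ranges overlapped. Its interaction was 0.88 ± 0.157 (limma adjusted p = 0.0249, and 1.00 without a block). Larger positive estimates than that of Ap5s1, not called, included those of Cytip at 1.25 (adjusted p = 0.604), Fosl2 at 1.17 (0.300) and Abi3 at 1.14 (0.246). Cytip binds an adaptor of leukocyte adhesion, Fosl2 is an AP-1 transcription factor and Abi3 belongs to the actin regulators.

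Of 14 LXR targets tested, 1 had a positive called interaction, Abcg1 (0.0200% of all genes tested), and 0 a negative one (0.120%). The list median was 0.04. Tgm2, a transglutaminase, had an estimate of 0.68 ± 0.139 (limma adjusted p = 0.0958, and 0.0223 in the authors' values), and Mertk, the receptor for dying cells, one of 0.89 ± 0.366 (adjusted p = 0.885). Cyclodextrin lowered both in unloaded cells. The effect on Mertk was -0.56 in loaded cells (adjusted p = 0.317) and -1.45 in unloaded cells (0.00427), and that on Tgm2 was -0.12 (0.633) and -0.79 (2.23e-04) in the same order. Abca1, the other main cholesterol exporter, was detected on 5 CD-cc and 5 cc arrays and on 0 CD and 0 con arrays, so its estimate of 0.03 rests on background values in unloaded cells. The same held for Mylip, the ligase that degrades lipoprotein receptors, detected on 3 CD-cc, 5 cc, 0 CD and 0 con arrays. Nr1h3, which encodes LXR alpha, had an interaction of -0.14 (95% interval -0.65 to 0.37), while a dim further probe gave 0.18. The effect of cyclodextrin on Nr1h3 was 0.64 in loaded cells (adjusted p = 0.0701) and 0.77 in unloaded cells (0.0152).

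**Figure D3:**
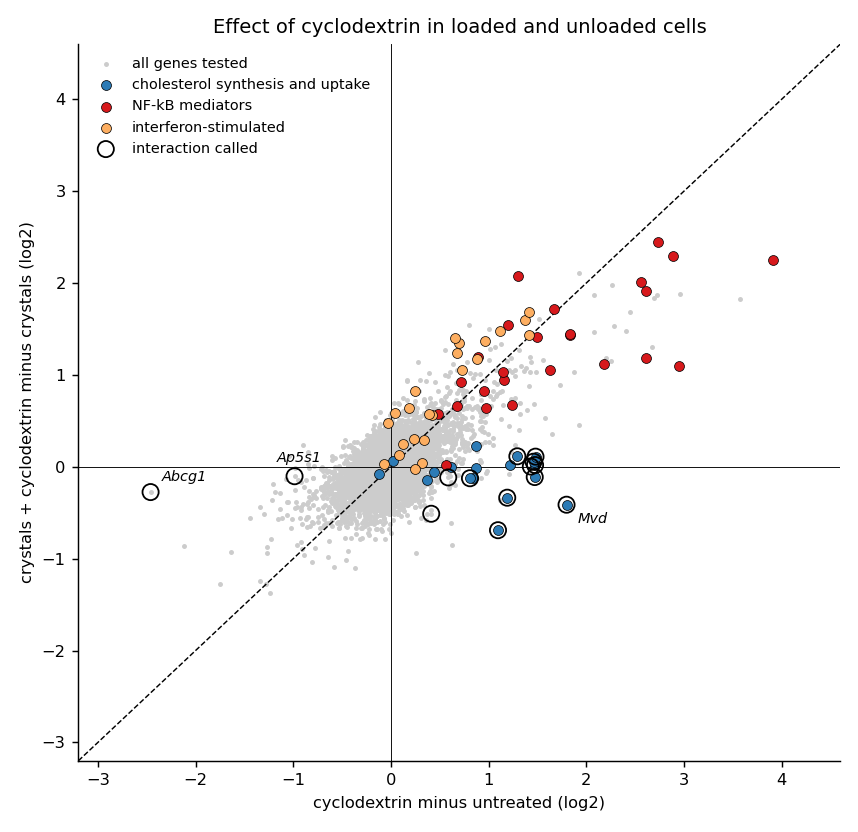
Effect of cyclodextrin in loaded cells (CD-cc minus cc, vertical axis, log2) against that in unloaded cells (CD minus con, horizontal axis, log2) for 10018 genes, with lists in colour and circles around the 14 genes called for the interaction. Genes on the dashed diagonal are additive. Most cholesterol genes lie to the right of it along the horizontal axis at 0, while genes of NF-kB and interferon lie along the diagonal or to either side of it without a call.

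Most of what cyclodextrin changed in one setting had the same direction in the other. The 2 effects use different arrays, although the arrays come from the same sets. Of 257 genes that cyclodextrin raised in unloaded cells, 237 had a positive and 20 a negative estimate in loaded cells. There 71 of them were called higher (1.29% of all genes tested) and 1 lower (0.509%). Their median was 0.46 in loaded cells, against 0.79 in unloaded cells where they were chosen. Of 156 genes lowered in unloaded cells, 147 had a negative estimate in loaded cells and 13 were called lower there (0.509% of all genes tested). Their medians were -0.29 in loaded and -0.62 in unloaded cells. Chosen the other way round, the 129 genes raised in loaded cells had 129 positive estimates in unloaded cells, with a median of 0.81 in loaded and 0.59 in unloaded cells. In each case the median was larger in the setting used for the choice.

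Many inflammatory mediators rose with cyclodextrin in both settings, and none was called for the interaction over all 20 arrays. Of 25 NF-kB targets tested, cyclodextrin raised 10 in loaded cells (1.29% of all genes tested, list median 1.18). In unloaded cells it raised 16 (2.57% of all genes, list median 1.50). For the interaction 0 were called (0.140% of all genes), and the estimates had a median of -0.33, with 19 of 25 negative. At that share a list of this size would usually hold no call. Tnf read 10.04, 10.32, 9.88, 13.18 and 12.53 in CD-cc cells, against 9.09, 8.99, 8.44, 9.31 and 8.66 in cc cells. It read 9.46, 10.04, 9.25, 12.95 and 12.12 in CD cells, against 7.78, 7.61, 7.51, 8.32 and 8.15 in con cells. Tnf was higher with cyclodextrin in every set of both settings, and with cyclodextrin it was highest in sets 4 and 5. The effect was 2.29 in loaded cells (adjusted p = 0.0160) and 2.89 in unloaded cells (0.00140), and the interaction of -0.60 had a 95% interval of -1.91 to 0.71. That interval leaves room for a sizeable departure in either direction.

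The chemokine Cxcl10 had cyclodextrin effects of 2.45 in loaded and 2.73 in unloaded cells. Its interaction was -0.28 (95% interval -1.58 to 1.02), while a dim further probe gave 0.34. Larger negative estimates without a call were those of Cxcl2, a chemokine for neutrophils, at -1.85 ± 1.07, Acod1, the enzyme that makes itaconate, at -1.66 ± 0.967, and Ccl3, a macrophage chemokine, at -1.43 ± 0.537, with limma adjusted p of 0.969, 0.969 and 0.872. Within a chip batch, Acod1 was called on chips 2, 3, 4 and 6 alone (-1.98, adjusted p = 0.00998) and Ccl3 on chips 1 and 5 alone (-1.74, adjusted p = 0.0159). The SE of Cxcl2 and Acod1 was several times that of the sterol genes. Il1b had an estimate of -0.94 with an interval of -3.71 to 1.84.

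Interferon-stimulated genes leaned to the opposite side. Of 23 tested, 20 had a positive interaction estimate and 0 were called (0.140% of all genes tested), with a median of 0.28. The list median was 0.76, 0.13, 0.19, 0.29 and 0.29 in sets 1 to 5, so set 1 lay above the others. Cyclodextrin raised 12 of them in loaded cells (1.29% of all genes tested, list median 0.64) and 6 in unloaded cells (2.57% of all genes, list median 0.39). Cmpk2, a nucleotide kinase of the antiviral program, had an estimate of 0.75, Ifit3, an antiviral effector, one of 0.65 and Igtp, a GTPase induced by interferon gamma, one of 0.58, with limma adjusted p of 0.900, 0.904 and 0.872.

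**Figure D4:**
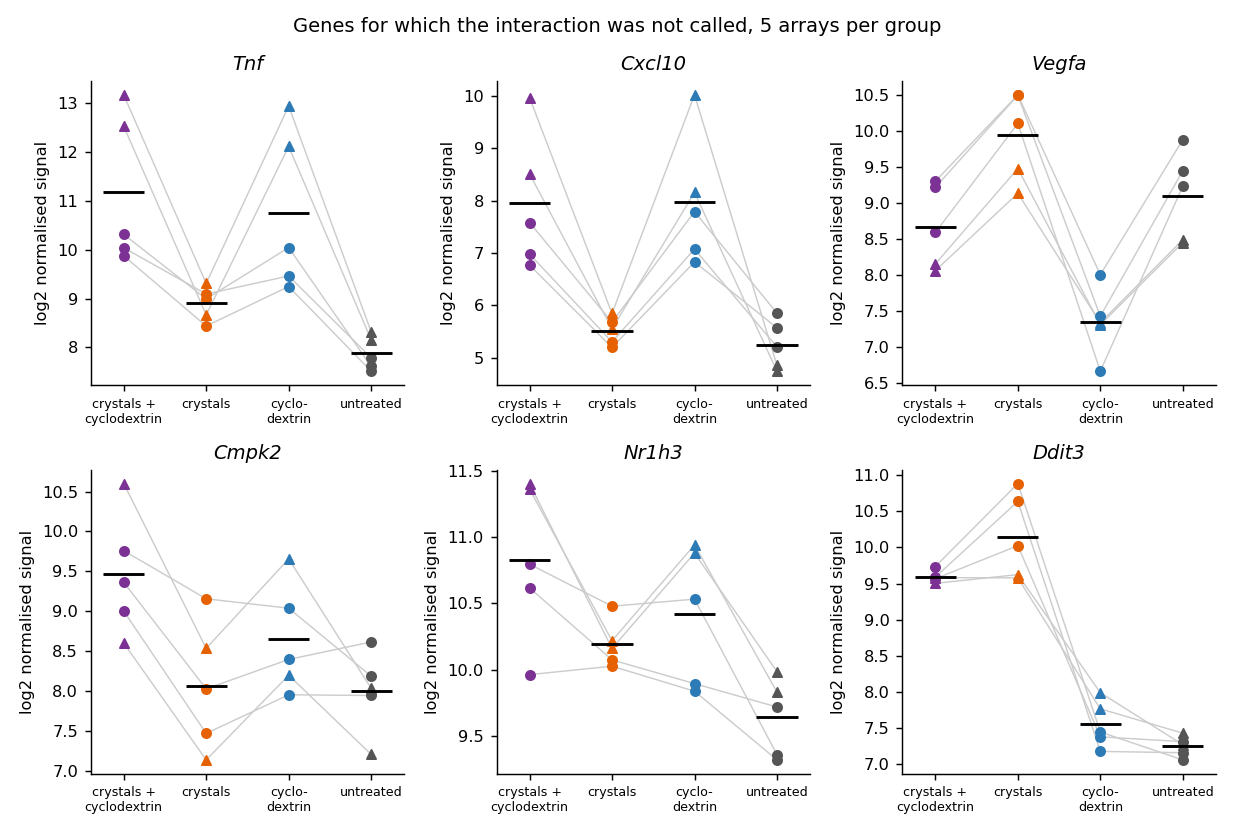
Log2 normalised signal of 6 genes with no called interaction (vertical axes, each with its own range) in CD-cc, cc, CD and con cells, labelled crystals + cyclodextrin, crystals, cyclodextrin and untreated. Points are arrays, circles for sets 1 to 3 and triangles for sets 4 and 5, grey lines join the arrays of a set, and bars are group means. Tnf and Cxcl10 are higher with cyclodextrin in both settings, Vegfa is lower in both, and Ddit3 differs mainly between cells with and without crystals.

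Stress genes that crystals raised had no called interaction. Over all genes tested 0.140% were called, so a list of this size would usually hold no call. Of 23 genes of amino acid stress, the program of ATF4 and CHOP, crystals raised 17 in CD-cc against CD cells (8.46% of genes tested were called higher) and 19 in cc against con cells (12.5%). Of the 23 estimates, 22 were negative (median -0.21). The largest were Ppp1r15a, a phosphatase subunit that restores translation, at -1.29 ± 0.563, and Slc7a11, the cystine importer, at -1.05 ± 0.796. Chac1, an enzyme that breaks down glutathione, was at -1.03 ± 0.571. Their limma adjusted p was 0.900, 0.998 and 0.969, and dimmer probes of Slc7a11 gave -0.73, 0.02 and -0.36. Ddit3, which encodes CHOP, had one of -0.86 and the pseudokinase Trib3 one of -0.75, with limma adjusted p of 0.872 and 0.969. Of 22 cell cycle genes, 21 had a positive estimate (median 0.14) and 0 were called (0.140% of all genes tested). Crystals alone lowered 18 of the 22 (15.2% of all genes tested).

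Other genes with large estimates and no call were the heat shock gene Hspa1a at -1.47 (95% interval -2.98 to 0.04), the MAP kinase phosphatase Dusp2 at -1.47 (limma adjusted p = 0.872) and Herpud1, a factor of protein disposal at the endoplasmic reticulum, at -1.04 (0.836). Vegfa, the growth factor of blood vessels, fell with cyclodextrin in both settings (-1.28 in loaded and -1.75 in unloaded cells), and its interaction of 0.47 was not called (adjusted p = 0.969). Ctsl, a lysosomal protease, had an estimate of 0.68 (adjusted p = 0.569), and Ch25h, which makes 25-hydroxycholesterol, one of -0.84 (0.989). Kit, a receptor that marks mast cells and the 1 tested gene of the 6 on that list, averaged 8.01 in CD-cc cells and 8.45 in cc cells, and 4.43 in CD cells and 4.49 in con cells. Crystals raised it in cc against con cells (limma adjusted p = 6.62e-08). It was detected on all CD-cc and cc arrays, on 0 CD and on 2 con arrays, so its interaction estimate of -0.38 (adjusted p = 0.998) rests on background values in unloaded cells. Lists of NRF2, lysosome, hypoxia, chaperone, inflammasome, lipid droplet, sterol ester, interleukin-10, heat shock and immediate early genes had 0 calls. Over all genes tested 0.140% were called, and the medians of these lists lay between -0.27 and 0.12.

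**Figure D5:**
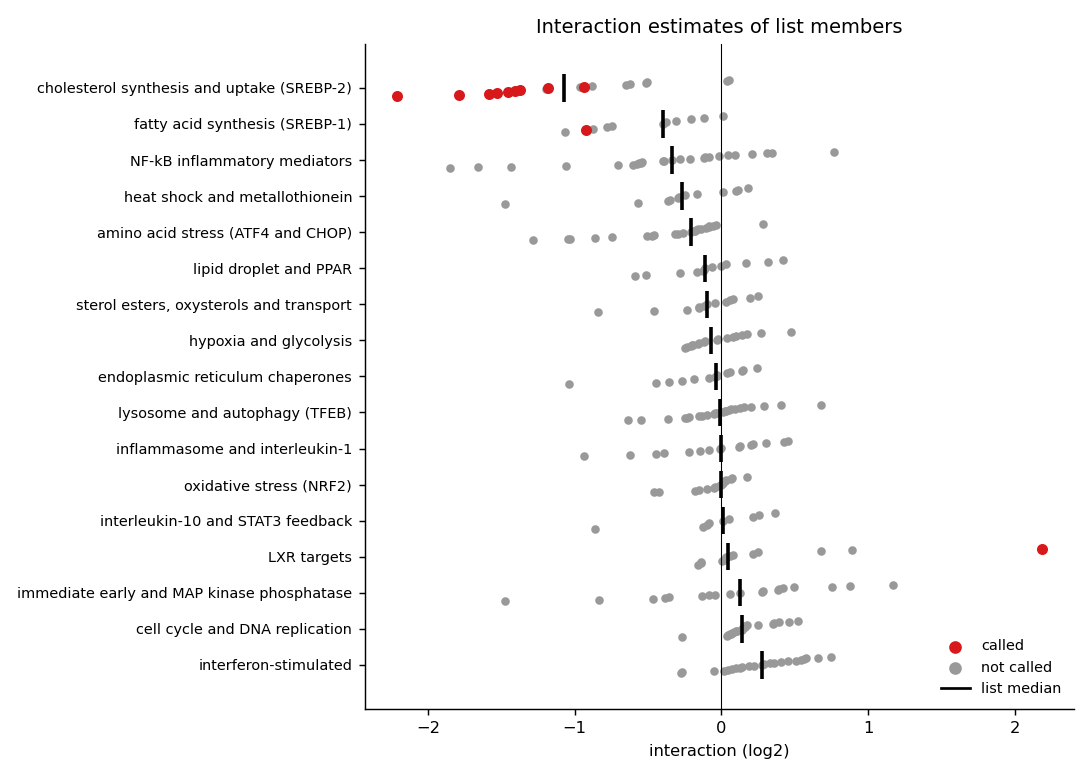
Interaction in log2 units (horizontal axis) of the tested members of 17 pathway lists, 1 point per gene, with called genes in red and the list median as a black bar. The cholesterol list has its median at -1.07. Its 9 members with a call reach from -2.21 to -0.93, and Idi1 at -1.20 and Msmo1 at -0.97, not called, lie among them. Abcg1 stands alone at 2.18 among LXR targets.

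Within the chip batches 9 genes were called on chips 1 and 5 alone, 2 of them among the 14, and 8 on chips 2, 3, 4 and 6 alone, 6 of them among the 14. On chips 2, 3, 4 and 6 alone all 14 genes kept their sign, and likewise on chips 1 and 5 alone. The cholesterol list had a median of -0.81 on chips 1 and 5, against -1.44 on chips 2, 3, 4 and 6. In the same order of batches the estimate was -1.04 and -1.95 for Cyp51, and 2.15 and 2.23 for Abcg1. In 13 of the 14 genes the estimate was larger in size on chips 2, 3, 4 and 6, the exception being Tmem97. The difference between the batches was called for 0 of 10018 genes by limma, with a lowest adjusted p of 0.290 and 348 genes at an unadjusted p below 0.05.

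The calls also differed in how far they rested on single arrays. In the 20 fits that each left out 1 array, 11 of the 14 genes were called every time. The other 3 had the highest adjusted p of the 14, and their calls were lost in 12 of 20 fits for Ap5s1, 15 for Acsl3 and 17 for Tmem97. Leaving out a whole set of 4 arrays left 6 genes called in each of the 5 fits, namely Mvd, Insig1, Lss, Aacs, Hsd17b7 and Abcg1. In total 6 genes were called without set 1, 11 without set 2, 12 without set 3, 8 without set 4 and 7 without set 5.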

How the data were processed

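RNA samples of macrophages, 20 in 4 groups of 5, were measured on 6 Illumina mouse BeadChips after biotin labelling. The deposited table holds, per the file headers, an average bead signal (intensity, linear, not background-subtracted) and a detection p-value for 45281 probes on 20 arrays. A value table by the authors, on the log2 scale, was used as an alternative. It was recomputed as the quantile-normalised log2 signals with the mean of each of 5 sets of 4 arrays made equal for every probe (SD of the difference 6.97e-05, at most 0.0185), and its column medians were 6.71 to 6.72. The set means of its values had an SD of at most 3.30e-06 between sets, against 0.0225 for the next best foursome. Per the submitters' processing notes Partek was used, and its steps are not stated.

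Here the bead signals were normalised in R 4.3.3 with limma 3.58.1 (neqc, controls inferred from the detection p, offset 16, quantile, log2). The offset shrinks changes of dim probes. A probe was kept if its detection p was below 0.05 on 5 or more arrays (18348 probes). Of 45281 probes 34885 had 1 symbol, 18 several and 10378 none, and those with several or none were not used. Of 15671 detected probes with 1 symbol, the brightest stood for its gene, giving 10018 genes. Group means and the set were fitted per gene (lmFit, contrasts.fit, eBayes, two-sided, 12 residual degrees of freedom before moderation), with Benjamini-Hochberg adjustment over all genes and a threshold of 0.05. A value after ± is the SE of this fit. The number of arrays limits the precision.

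The set was taken as the block because the authors' table removes it. Deviations from group means correlated between arrays of a set with a median r of 0.53 (30 pairs, -0.08 to 0.74), and 17 of 20 arrays correlated best with their own set. The members and the 26 gene lists (433 genes, 325 tested) were chosen with earlier results of these data known, and lists are described by counts and medians with no test. Named genes were the 12 largest estimates called in each direction, up to 3 members of each list with the largest estimates, and a fixed set of sterol and inflammation genes, 90 in all; where under 5 genes were called in a direction, the largest estimates stood in. Further members of the cholesterol list were named after their values were seen. Genes without a named probe were not analysed here. Alternatives changed the block, normalization, values, filter, probes, weights, variance model, minimum size, batch and arrays.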

Additional observations from a re-analysis of the deposited data

Results flagged for a closer look

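An array stood apart from the other 4 of its group in 4 of 196 groups checked (2.04%, where chance alone gives about 1 in 20). Fdps read 9.56 in CD-cc cells of set 5, and the nearest of that group read 8.88. Aacs read 8.51 in CD-cc cells of set 4, with the nearest at 8.77. Both are genes with a called interaction, and both kept a negative estimate in every set. Mylip, detected on 0 CD and 0 con arrays, read 6.06 in cc cells of set 2, with the nearest at 4.98. Chac1 read 7.06 in con cells of set 3, with the nearest at 7.60.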

How the results depend on the processing

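All 14 called genes kept their sign in every alternative fit on the log2 scale, and these fits used the same arrays or a part of them. Without a block, with the replicate number as a block, and with the chip as a fixed block, 1 higher and 3 lower genes were called. Same-numbered arrays correlated with a median r of -0.20 (30 pairs) and 4 of 20 correlated best with their own number, so the numbers do not pair the arrays. The chip as a random block and scale normalization each gave 1 higher and 5 lower, chips 1 and 5 alone 2 higher and 7 lower (2 of these 9 among the 14), chips 2, 3, 4 and 6 alone 0 higher and 8 lower, and dropping the 3 dimmest arrays 1 higher and 6 lower. At least 2-fold in size were 1 higher and 9 lower. Leaving out an array or a set gave 1 to 3 higher and 5 to 12 lower. The authors' table called 16 genes, the 14 and Tgm2 and Elovl6, with Abcg1 at 1.03. On the linear scale Abcg1 was at -121.

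Some estimates without a call changed sign, none of them past the threshold. Abca1 was at -0.0187 with the chip as a fixed block, -0.00392 with array weights, -0.12 on chips 1 and 5, -0.0776 without the 3 dimmest arrays, and -0.0973 to 0.18 leaving out an array or set. Hmox1 was at 0.21 with weights, 0.0686 on chips 1 and 5, 0.20 without the dimmest arrays and -0.27 to 0.39 leaving out an array or set. On chips 1 and 5 Cxcl10 was at 0.0294 and Il1b at 0.42, and on the other chips Nr1h3 was at 0.19, Srebf1 at 0.0546, Vegfa at -0.0524 and Cx3cr1 at -0.0400. Leaving out an array or set gave -0.24 to 0.0451 for Mylip, -0.26 to 0.0419 for Nr1h3, -0.32 to 0.10 for Srebf1, -0.62 to 0.18 for Cxcl10 and -1.55 to 0.12 for Il1b.

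List medians that moved were those of lipid droplet genes (0.0601 on chips 2, 3, 4 and 6), amino acid stress (-0.36 with the chip as a fixed block), lysosome (-0.18), immediate early (-0.0195) and macrophage genes (-0.14) with scale normalization, which shifted the median of all genes to -0.0439, macrophage genes with weights (0.15), and NF-kB genes (-0.11 without background correction, -0.11 in the authors' table, -0.62 with weights). Leaving out an array or set gave -0.33 to -0.11 for amino acid stress, -0.57 to -0.0232 for NF-kB, 0.0912 to 0.53 for interferon and -0.0178 to 0.16 for macrophage genes. The cause of these changes was not tested. Signal near background limits Abca1, Mylip and Kit in unloaded cells, Idi1, Mvk, Sc5d, Tm7sf2 and Elovl6 in loaded cells, and Abcg1 in CD cells.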
